A study of Mus musculus with 32 samples.

Results

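Gastrocnemius RNA at Zeitgeber time 12 (ZT12, 12 h after lights on) was compared between 4 libraries from mutant and 4 from control mice, 8 of the 32 libraries in the series. The mutant mice carried the Sf1-Cre transgene and 2 floxed Sirt1 alleles (Sf1-Cre; Sirt1loxP/loxP), and the control mice carried the floxed alleles without Cre (Sirt1loxP/loxP). All were 10 weeks old, on a mixed genetic background, and the same genotypes at ZT0, ZT6 and ZT18, with 4 libraries in each group, supplied the spread and the comparison between times. Because no group carried Cre without floxed alleles, the transgene and the deletion cannot be told apart. Levels are FPKM, read counts scaled by transcript length and library total, and differences are mutant minus control on log2(FPKM + 1). The gene rule, at least 1 FPKM in 4 or more of the 8 libraries, took 11316 of 16634 entries. It left 201 genes just inside, with exactly 4 libraries at 1 FPKM or more, and 194 just outside, with 3.

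SF1 marks neurons of the ventromedial hypothalamus, which control energy expenditure, sympathetic outflow and glucose uptake by muscle. SIRT1 is a deacetylase that uses NAD and so ties protein acetylation to metabolic state. Muscle fibres also run a clock of their own, in which CLOCK and BMAL1 drive Per, Cry, Dbp and other genes through E-box sequences, and ZT12 is the hour at which mice turn from rest and fasting to activity and feeding. The Sf1 promoter is active outside the brain too, in the adrenal cortex, gonads and pituitary, and recombination was not measured in any tissue here.

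Sirt1 (XLOC_002098, chr10:63319005-63339035 in mm10), the floxed gene, was at 4.42, 5.80, 5.65 and 5.69 FPKM in mutant muscle, against 5.22, 5.56, 5.38 and 4.57 FPKM in control muscle. The groups overlapped, and the difference of 0.04 had a 2-sided exact permutation p of 0.543, where 4 against 4 allows 0.0286 at the least. Muscle RNA does not check a deletion directed at neurons. Markers that define skeletal muscle were high: creatine kinase Ckm lay between 15837 and 21315 FPKM in mutant muscle and between 16457 and 21598 FPKM in control muscle, and myoglobin Mb at 1956 FPKM or more in each library. Acta1, skeletal actin, was listed at exactly 0 in mutant libraries 2 and 3 and control libraries 0 and 2 and lay at 19028 FPKM or more in the others, so such zeros were taken as missing (11 genes in the ZT12 libraries). Atp2a1 and Snora17 had too few values left, and 11314 genes were tested. The size of 1 read in sparse genes put relative depth at 0.866 to 1.18 in mutant and 0.831 to 1.14 in control libraries, while absolute depth is unknown.

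At an adjusted p under 0.05, 3 genes differed between genotypes at ZT12 (0.0265% of those tested): Nr6a1 and Gm13490 rose and Thumpd2 fell in mutant muscle. Nr6a1 (XLOC_012290, chr2:38723374-38926461) encodes GCNF, an orphan nuclear receptor that silences pluripotency genes in the embryo. It was at 2.93, 2.85, 2.90 and 2.68 FPKM in mutant muscle, against 1.36, 1.08, 1.65 and 1.16 FPKM in control muscle. The lowest mutant library lay well above the highest control library, the means were 2.84 ± 0.112 FPKM in mutant muscle and 1.31 ± 0.251 FPKM in control muscle (SD, n = 4 each), and the ratio of means was 2.16. The difference was 0.74 (SE 0.0965; limma, adjusted p = 0.000324).

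Gm13490 (XLOC_012305, chr2:51656966-51732009), a long non-coding RNA annotated on the same chromosome, was at 1.34, 1.58, 2.31 and 1.18 FPKM in mutant muscle, against 0.0465, 0.0266, 0 and 0.0398 FPKM in control muscle. It was over 1 FPKM in the 4 mutant libraries and at or close to 0 in the control libraries, a difference of 1.32 (SE 0.209; limma, adjusted p = 0.00458). Gm13490 met the level rule only through the mutant libraries, so its ZT12 test is not independent of that rule. Nr6a1 and Gm13490 were higher in mutants at the other times too. Nr6a1 averaged 2.40, 2.44, 2.84 and 2.64 FPKM in mutants at ZT0, ZT6, ZT12 and ZT18, against 0.923, 1.10, 1.31 and 1.34 FPKM in controls at those times. The ZT12 difference minus the mean of the other 3 was 0.02 for Nr6a1 (limma, adjusted p = 0.953) and -0.02 for Gm13490 (limma, adjusted p = 0.973). Gm13490 averaged 1.85, 1.61, 1.604 and 1.76 FPKM in mutants over the 4 times, against 0.0453, 0.0459, 0.0282 and 0.0341 FPKM in controls. Both stayed under a limma adjusted p of 0.05 when any 1 of the 32 libraries was left out. The genes tested were not chosen again in these fits, so for Gm13490 they depend on the level rule as well.

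Thumpd2 (XLOC_009652, chr17:81026327-81065085) encodes a THUMP domain protein that in human cells methylates the U6 small nuclear RNA of the spliceosome. It was at 1.19, 1.25, 1.15 and 1.30 FPKM in mutant muscle, against 2.31, 2.46, 2.23 and 2.43 FPKM in control muscle. Each group held together closely and the groups lay well apart, with means of 1.23 ± 0.0667 FPKM in mutant muscle and 2.36 ± 0.107 FPKM in control muscle (SD, n = 4 each) and a ratio of means of 0.519. The difference was -0.59 (SE 0.112; limma, adjusted p = 0.0461). Its adjusted p ranged from 0.00222 to 0.144 over leaving out each library, and it was above 0.05 in 21 of these 32 fits. The count of 3 called genes became 472 without mutant ZT12 library 3, 261 without mutant ZT0 library 2, 96 without mutant ZT0 library 3, 6 without mutant ZT12 library 2 or mutant ZT18 library 1, and 5 without mutant ZT6 library 0 or control ZT6 library 0 or 3. It was 2 to 4 in the other fits.

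Polh (XLOC_009497, chr17:46171993-46202625), which encodes DNA polymerase eta, the enzyme that copies past ultraviolet damage, was at 6.07, 6.43, 5.27 and 5.87 FPKM in mutant muscle, against 8.49, 9.46, 9.44 and 8.38 FPKM in control muscle. The groups did not overlap, and the difference was -0.53 (limma, adjusted p = 0.0516), just outside the threshold. Arl5a (XLOC_012309, chr2:52397951-52424874), a small GTPase of the Golgi, was at 10.99, 11.5, 12.3 and 12.5 FPKM in mutant muscle, against 6.66, 8.40, 7.84 and 8.61 FPKM in control muscle. Its difference of 0.53 had the same limma adjusted p, 0.0516, a value that 16 genes shared.

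**Figure D1:**
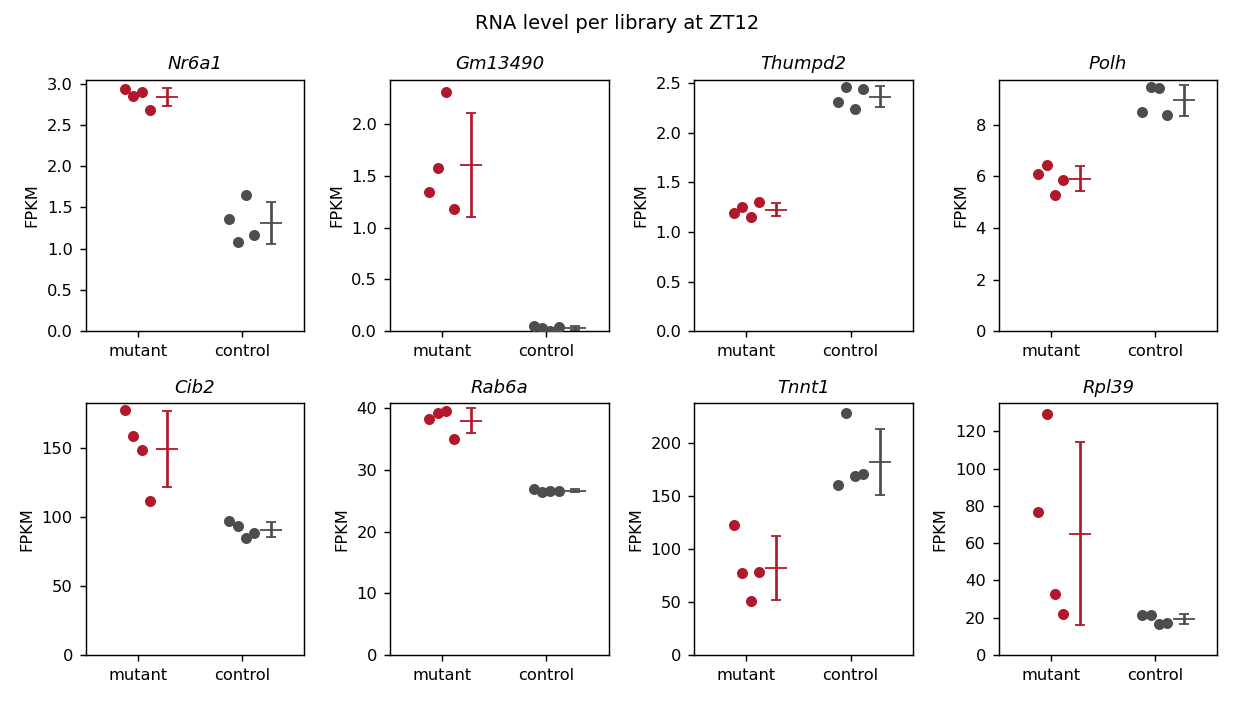
FPKM at ZT12 in each library (points), with the mean and SD of each group beside them; mutant in red on the left, control in grey on the right. Nr6a1, Gm13490, Thumpd2, Polh, Cib2, Rab6a, Tnnt1 and Rpl39 do not overlap between genotypes, and the 4 mutant values of Rpl39 lie far apart.

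The start regions of the 3 called genes and of Polh are printed here because these genes carry the single-gene results. Sequences are RefSeq windows on GRCm38.p6, from 250 bases before to 50 after the annotated start, 5′ to 3′ on the gene's strand. Capitals mark matches, on either strand, to the E-box CACGTG, the GC box GGGCGG or the CCAAT box.
Nr6a1 (chr2:38926412-38926711, minus strand): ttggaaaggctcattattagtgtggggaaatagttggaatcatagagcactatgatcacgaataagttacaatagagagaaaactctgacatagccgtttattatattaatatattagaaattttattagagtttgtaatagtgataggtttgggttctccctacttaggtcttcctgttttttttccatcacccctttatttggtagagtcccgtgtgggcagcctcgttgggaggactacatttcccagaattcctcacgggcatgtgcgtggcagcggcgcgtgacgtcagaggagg
Gm13490 (chr2:51731960-51732259, minus strand): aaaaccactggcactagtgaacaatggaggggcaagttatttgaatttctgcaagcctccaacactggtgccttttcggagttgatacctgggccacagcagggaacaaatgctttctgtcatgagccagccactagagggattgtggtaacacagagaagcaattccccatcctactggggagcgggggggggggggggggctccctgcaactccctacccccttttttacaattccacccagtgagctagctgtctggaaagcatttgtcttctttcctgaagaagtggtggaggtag
Thumpd2 (chr17:81065036-81065335, minus strand): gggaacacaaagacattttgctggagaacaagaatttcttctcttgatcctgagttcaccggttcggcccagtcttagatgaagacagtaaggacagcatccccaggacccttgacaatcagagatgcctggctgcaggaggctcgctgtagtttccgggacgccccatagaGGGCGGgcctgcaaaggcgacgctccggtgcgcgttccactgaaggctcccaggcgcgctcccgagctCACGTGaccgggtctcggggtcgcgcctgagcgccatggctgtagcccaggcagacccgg
Polh (chr17:46202592-46202891, minus strand): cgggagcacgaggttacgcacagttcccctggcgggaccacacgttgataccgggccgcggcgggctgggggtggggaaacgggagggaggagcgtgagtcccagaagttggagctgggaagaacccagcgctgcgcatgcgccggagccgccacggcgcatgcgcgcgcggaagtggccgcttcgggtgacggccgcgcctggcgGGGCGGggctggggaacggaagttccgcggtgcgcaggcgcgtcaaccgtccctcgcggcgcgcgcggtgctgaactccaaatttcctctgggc
In Thumpd2 the E-box begins 10 bases before the start and the GC box 78 bases before it. Polh has a GC box 44 bases before its start, and the windows of Nr6a1 and Gm13490 hold none of the 3 motifs. Over the 32851 windows of the table, CACGTG occurred in 7.15%, GGGCGG in 35.7% and CCAAT in 37.4%. A match describes letters only, and windows were found for 75.0% of the tested genes, too few for a comparison of motifs between gene sets.

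Thumpd2 and Polh belong to a second set, of genes whose genotype difference at ZT12 departed from the mean difference at the other times. In that contrast 13 genes were called (0.115% of 11313), 11 of them with a higher and 2 with a lower difference at ZT12. At an unadjusted p under 0.05 it held 13.6% of genes higher and 2.96% lower, but after centring libraries the counts were 830 higher and 819 lower. The 11 were Cib2, Rab6a, Chmp2b, Mff, Usp14, Snrpd3, Btf3, Lrp2bp, Opn1mw, D930016D06Rik and 4930430F08Rik. In all 11 the control mean at ZT12 was the lowest of the 4 control times, and in 9 the mutant mean at ZT12 was also the highest of the 4 mutant times. Usp14 and Snrpd3 were the other two. The same double order held in 13.2% of all tested genes, and the opposite one, control highest and mutant lowest at ZT12, in 3.60%. The contrast itself favours genes in such an order, so the order among the called genes follows from their selection and is no separate result.

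Cib2, a calcium-binding protein that inner ear hair cells of the mouse need to sense sound, was at 178, 159, 149 and 112 FPKM in mutant muscle, against 96.8, 93.5, 84.5 and 88.6 FPKM in control muscle at ZT12. Every mutant library lay above every control library, with a difference of 0.69 (SE 0.161; limma, adjusted p = 0.0722). Across ZT0, ZT6, ZT12 and ZT18 the mutant means were 118, 98.6, 149 and 105 FPKM and the control means 122, 141, 90.9 and 119 FPKM. Against the other times the difference was larger by 0.96 (SE 0.186; limma, adjusted p = 0.0444).

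Rab6a, a GTPase of transport to and from the Golgi, was at 38.3, 39.2, 39.6 and 35.0 FPKM in mutant muscle, against 27.0, 26.4, 26.6 and 26.5 FPKM in control muscle. The control values were nearly identical and all below the mutant ones. Its mutant means over the 4 times were 32.9, 29.0, 38.0 and 33.4 FPKM, against control means of 32.4, 36.2, 26.6 and 33.5 FPKM. The genotypes were thus near each other at ZT0 and ZT18 and in opposite order at ZT6, and the contrast with the other times was 0.60 (SE 0.121; limma, adjusted p = 0.0444). Chmp2b, a subunit of the ESCRT-III membrane scission complex, was at 26.5, 28.3, 25.1 and 22.4 FPKM in mutant muscle, against 19.6, 19.0, 19.0 and 17.8 FPKM in control muscle. Here too the groups did not overlap, and the contrast was 0.59 (limma, adjusted p = 0.0444).

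Mff, the receptor on mitochondria that recruits the fission GTPase DRP1, was at 70.5, 66.5, 64.8 and 56.8 FPKM in mutant muscle, against 57.4, 51.3, 50.1 and 44.3 FPKM in control muscle. One control library lay above the lowest mutant library, and the contrast with the other times was 0.48 (limma, adjusted p = 0.0444). Usp14, a deubiquitinase that sits on the proteasome, averaged 20.03 ± 1.28 FPKM in mutant muscle and 15.3 ± 0.834 FPKM in control muscle (SD, n = 4 each), without overlap, and its contrast was 0.48 (limma, adjusted p = 0.0444). Rnf7, the RING subunit of cullin ligases, averaged 68.0 ± 10.4 FPKM in mutant muscle and 49.5 ± 2.79 FPKM in control muscle (SD, n = 4 each); its contrast of 0.57 had a limma adjusted p of 0.0846. Snrpd3, a core protein of spliceosomal particles, averaged 78.5 ± 16.0 FPKM in mutant muscle and 58.8 ± 2.74 FPKM in control muscle, and Btf3, a subunit of the complex that binds nascent polypeptides, 27.3 ± 5.61 FPKM in mutant muscle and 19.6 ± 1.002 FPKM in control muscle (SD, n = 4 each).

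Polh averaged 9.4996, 9.48, 5.91 and 7.78 FPKM in mutants over the 4 times and 8.56, 8.06, 8.94 and 8.48 FPKM in controls, and Thumpd2 1.97, 2.02, 1.23 and 1.55 FPKM in mutants and 2.04, 1.69, 2.36 and 1.46 FPKM in controls. For both, ZT12 had the highest control and the lowest mutant mean. The contrast with the other times was -0.62 for Polh (limma, adjusted p = 0.0471) and -0.64 for Thumpd2 (limma, adjusted p = 0.0444).

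**Figure D2:**
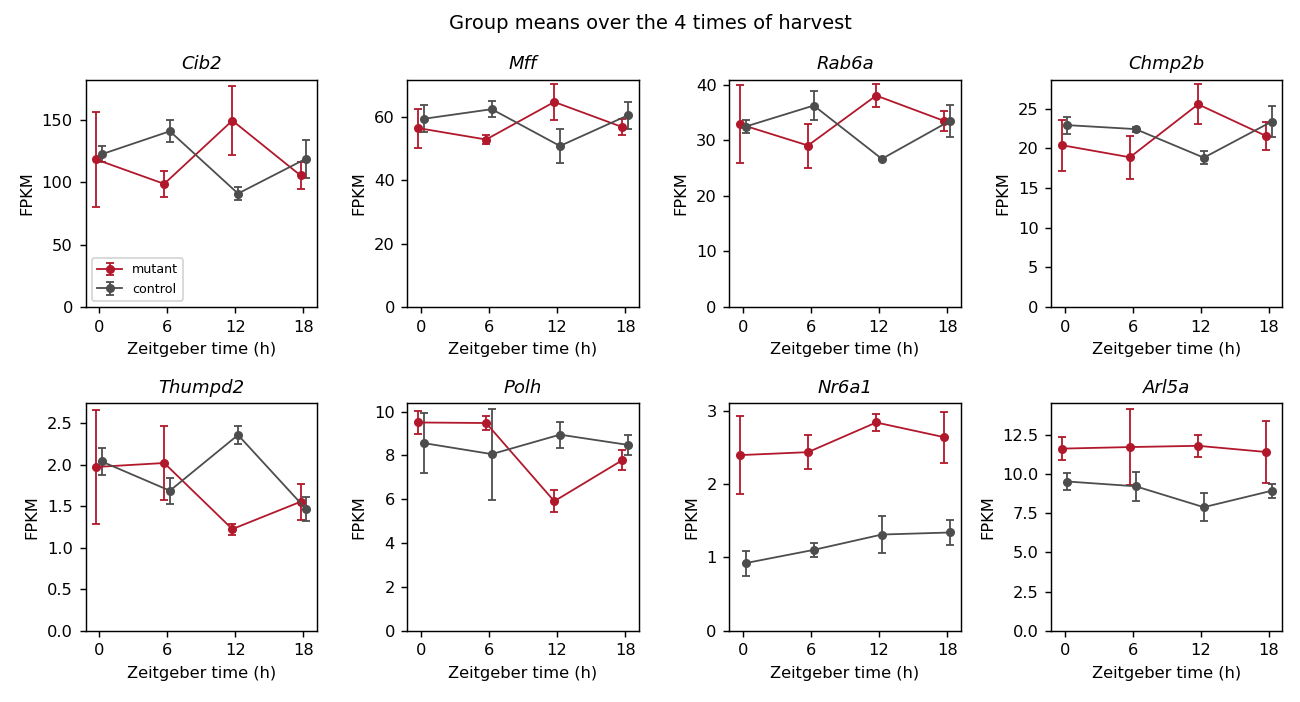
Mean FPKM with SD (n = 4) at Zeitgeber times 0, 6, 12 and 18 h in mutant (red) and control (grey) muscle. Cib2, Mff, Rab6a and Chmp2b peak at 12 h in mutants and dip there in controls, Thumpd2 and Polh show the reverse order, and Nr6a1 and Arl5a are higher in mutants at all 4 times.

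No call was left (limma) when any of mutant ZT12 libraries 0, 1 or 2, or control ZT12 libraries 1, 2 or 3, was taken out, whereas 843 genes were called without mutant ZT0 library 2 421 without mutant ZT12 library 3 and 31 without mutant ZT0 library 3. Leaving out mutant ZT0 library 0, mutant ZT6 library 0, mutant ZT18 library 1, control ZT0 library 1 or control ZT6 library 2 or 3 gave 10 to 16 calls, and each of the other 17 libraries 1 to 6. Centring each library on its median gave 5 calls.

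Beyond single calls, many genes lay slightly higher in mutant muscle. At an unadjusted p under 0.05, 1495 genes were higher (13.2%) and 534 lower (4.72%). The 4 mutant libraries lay above all 4 control libraries in 663 genes (5.86%) and below them all in 204 (1.8%). The median difference over all genes was 0.07. When each library was centred on its own median, 872 genes were higher (7.71%) and 1055 lower (9.32%), so the direction of the excess depends on the scaling, and counts for gene groups are given both ways here. The higher count was 920 without mutant ZT12 library 0 and 831 without library 1, and the lower count 157 without library 1 and 807 without library 2.

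The shift went with transcript length. In the shortest of 8 bins of genes (54 to 1495 bases) the median difference was 0.11 and 19.5% of genes were higher at that p, against 0.01 and 4.48% in the longest (6238 bases and up). At ZT0 the medians of these end bins were 0.05 and -0.07, at ZT6 -0.09 and 0.02, and at ZT18 -0.05 and -0.01, so the slope changed sign between times. The 20 highest genes took 34.0%, 31.3%, 38.1% and 33.6% of all FPKM in the mutant libraries, against 39.6%, 38.8%, 36.5% and 36.6% in the control libraries. Troponin Tnnt3, one of those highest genes, was at 5678, 2812, 25229.9 and 20849 FPKM in mutant muscle, against 33494, 21735, 26333 and 17646 FPKM in control muscle, low in mutant libraries 0 and 1. The part of length, or of these genes, in the differences was not tested further. Centring each library within bins of length, an alternative chosen after the data were seen, gave 904 genes higher and 993 lower.

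**Figure D3:**
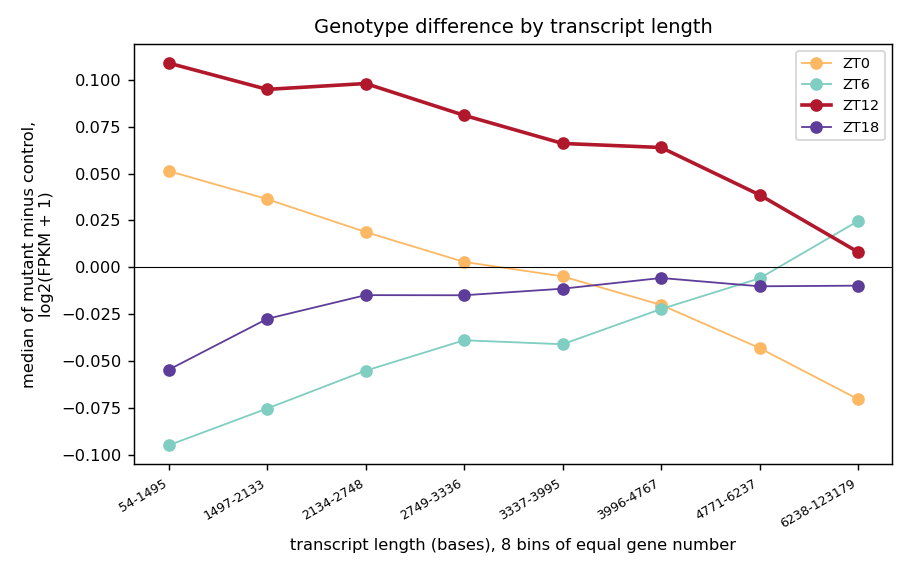
Median genotype difference (mutant minus control, log2(FPKM + 1)) in 8 bins of transcript length, from short to long, at each time of harvest. At ZT12 (red) the median declines from 0.11 to 0.01, ZT0 declines as well, and ZT6 and ZT18 run upward.

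**Figure D4:**
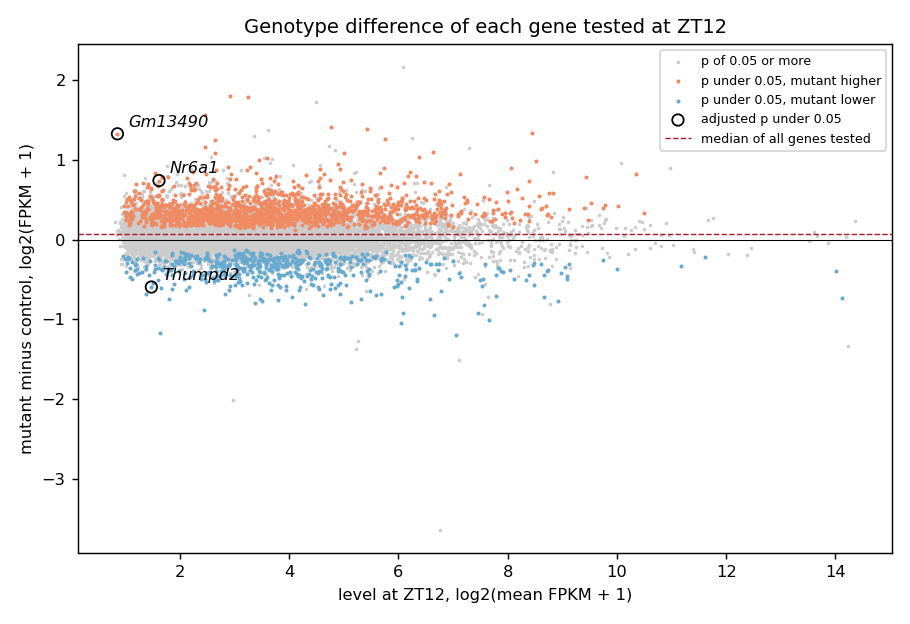
Difference between genotypes (vertical, log2(FPKM + 1)) against level (horizontal, log2 of mean FPKM + 1) for each gene tested at ZT12. Orange and blue mark unadjusted p under 0.05, circles the 3 genes at an adjusted p under 0.05, and the dashed line the median of 0.07.

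Without mutant ZT12 library 3, 403 genes were called higher (3.56%) and 69 lower (0.61%) at an adjusted p under 0.05, with 3 libraries against 4. In the list counts of the next paragraphs, "higher" and "lower" refer to an unadjusted p under 0.05, and no member other than those named above passed the adjusted threshold with all libraries. The lists were chosen with earlier results of these data known, and genes already named, such as Rab6a, Arl5a and Thumpd2, are counted in them.

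Vesicle traffic genes are set beside shares of 13.2% higher and 4.72% lower over all genes. After centring these shares were 7.71% higher and 9.32% lower. Of 42 tested Rab GTPases, which direct vesicles to their target membranes, 13 were higher and 1 lower (8 and 2 after centring), with a median difference of 0.12, or 0.05 after centring. Rab1, of transport from the endoplasmic reticulum to the Golgi, was at 65.0, 66.7, 61.0 and 58.0 FPKM in mutant muscle, against 49.1, 49.8, 52.1 and 52.6 FPKM in control muscle, without overlap (difference 0.29; limma, adjusted p = 0.152). Rab2a, of the same route, averaged 117 ± 13.0 FPKM in mutant muscle and 89.8 ± 9.06 FPKM in control muscle (SD, n = 4 each). Of 40 genes for Golgi proteins and vesicle coats, 10 were higher and 3 lower (7 and 6 after centring), and their median was 0.07, that of all genes.

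Among the Golgi genes, the cargo receptor Tmed7 was at 20.7, 28.3, 19.4 and 19.9 FPKM in mutant muscle, against 11.5, 13.1, 14.8 and 15.2 FPKM in control muscle (difference 0.65, SE 0.158), and mutant library 1 was the highest. The SNARE Bet1 was at 22.2, 20.8, 21.2 and 17.4 FPKM in mutant muscle, against 15.3, 15.9, 14.4 and 14.4 FPKM in control muscle, and the groups did not overlap. Tmed10, another cargo receptor, averaged 27.97 ± 3.64 FPKM in mutant muscle and 21.5 ± 0.490 FPKM in control muscle (SD, n = 4 each). Of 24 ARF and ARL GTPases, 4 were higher and 1 lower (4 and 2 after centring). Besides Arl5a, those higher included the coat recruiter Arf1, with 137 ± 21.3 FPKM in mutant muscle and 110.1 ± 4.09 FPKM in control muscle, and the lysosomal Arl8b, with 53.6 ± 6.36 FPKM in mutant muscle and 40.9 ± 1.84 FPKM in control muscle (SD, n = 4 each). The lower one, Arl3, which delivers lipidated proteins to cilia, was at 63.3, 31.6, 60.8 and 45.4 FPKM in mutant muscle, against 79.0, 80.7, 63.4 and 70.2 FPKM in control muscle, with mutant library 1 far down.

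Of 35 autophagy genes, 11 were higher and 1 lower (9 and 3 after centring), and in 7 the 4 mutant libraries lay above all 4 control libraries, against 5.86% of all genes. Atg4c, a protease that trims LC3-type proteins, was at 5.03, 5.28, 3.93 and 3.27 FPKM in mutant muscle, against 2.26, 2.46, 2.93 and 2.68 FPKM in control muscle, a difference of 0.57 (SE 0.137; limma, adjusted p = 0.0777). Atg7, the E1-like enzyme of the pathway, averaged 5.42 ± 0.637 FPKM in mutant muscle and 4.01 ± 0.313 FPKM in control muscle, and the initiating kinase Ulk2 43.1 ± 4.18 FPKM in mutant muscle and 34.0 ± 3.02 FPKM in control muscle (SD, n = 4 each). None of the 3 overlapped between genotypes. The median of the list was 0.09, or 0.02 after centring.

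Genes of the ribosome, respiratory chain and proteasome are short, with median transcripts of 1094, 1129 and 1895 bases for the 3 lists, against 3336 over all genes. Of 65 cytosolic ribosomal genes 20 were higher and 2 lower (15 and 4 after centring, 14 and 6 with the length correction). Their median of 0.10 became 0.03 after centring and -0.02 with the length correction. Rpl39 was at 76.7, 129, 32.4 and 21.9 FPKM in mutant muscle, against 21.6, 21.6, 16.8 and 17.3 FPKM in control muscle. Mutant libraries 0 and 1 stood high, while libraries 2 and 3 lay just above the controls. Rps21 was at 493, 639.9, 306 and 262 FPKM in mutant muscle, against 252, 246, 202 and 263 FPKM in control muscle, with the same 2 libraries high and an overlap of mutant library 3 with the controls. Rpl35a averaged 39.6 ± 4.03 FPKM in mutant muscle and 29.2 ± 3.82 FPKM in control muscle (SD, n = 4 each).

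Of 79 subunits of oxidative phosphorylation, 17 were higher and 8 lower (13 and 10 after centring; 10 and 12 with the length correction), so the balance turned with the scaling. Cox7a2, of cytochrome c oxidase, was at 229, 253, 132 and 108 FPKM in mutant muscle, against 91.9, 119, 82.3 and 92.6 FPKM in control muscle. Uqcr10, of complex III, was at 581, 935, 285 and 234 FPKM in mutant muscle, against 212, 218, 220.4 and 234 FPKM in control muscle. In both, mutant libraries 0 and 1 were highest. Among complex I subunits, Ndufa1 and Ndufa9 were more even between libraries. Ndufa1 averaged 179 ± 29.0 FPKM in mutant muscle and 126 ± 14.7 FPKM in control muscle (SD, n = 4 each). Ndufa9 averaged 241 ± 38.9 FPKM in mutant muscle and 184 ± 9.66 FPKM in control muscle (SD, n = 4 each). Ndufb3, of the same complex, lay lower in mutant muscle, at a mean of 293 FPKM against 420 FPKM in control muscle (difference -0.57). Of 76 mitochondrial ribosomal genes, 12 were higher and 9 lower, or 7 and 17 after centring and 6 and 21 with the length correction.

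Among 46 proteasome genes 7 were higher and 1 lower (6 and 4 after centring, 5 and 7 with the length correction), and the median difference was 0.01. Psmb1, a subunit of the catalytic core, was at 114, 109, 49.1 and 38.9 FPKM in mutant muscle, against 29.0, 31.6, 26.5 and 27.5 FPKM in control muscle, again with mutant libraries 0 and 1 high (difference 1.26, SE 0.327; limma, adjusted p = 0.0994). Psmc4, an ATPase of the regulatory particle, averaged 57.4 ± 10.0 FPKM in mutant muscle and 39.6 ± 2.48 FPKM in control muscle (SD, n = 4 each) and did not overlap. Of 144 genes for adding and removing ubiquitin, 22 were higher and 7 lower, or 11 and 18 after centring.

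The next genes are those higher in mutant muscle with the smallest p, at least 5 FPKM in 1 group and no overlap. Glrx, a glutaredoxin that reduces protein disulphides, was at 37.4, 35.3, 34.6 and 31.3 FPKM in mutant muscle, against 25.9, 25.1, 27.1 and 24.5 FPKM in control muscle (difference 0.42, SE 0.0894). Sypl, a synaptophysin-like vesicle protein, averaged 109.6 ± 20.04 FPKM in mutant muscle and 65.8 ± 7.75 FPKM in control muscle, and Commd3, a member of the Commander complex of endosomal recycling, 67.7 ± 14.0 FPKM in mutant muscle and 44.3 ± 3.05 FPKM in control muscle (SD, n = 4 each). Mfsd8, a lysosomal membrane protein, averaged 9.14 ± 0.811 FPKM in mutant muscle and 6.61 ± 0.760 FPKM in control muscle, and Dhrs7b, of peroxisomal ether lipid synthesis, 15.7 ± 3.76 FPKM in mutant muscle and 8.89 ± 0.774 FPKM in control muscle. Yaf2, a partner of Polycomb complexes, averaged 15.2 ± 1.48 FPKM in mutant muscle and 9.68 ± 1.10 FPKM in control muscle, and Pigp, of the first enzyme in making lipid anchors of proteins, 85.5 ± 24.4 FPKM in mutant muscle and 50.7 ± 6.74 FPKM in control muscle (SD, n = 4 each). All had a limma adjusted p between 0.0516 and 0.0720.

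The entry named Rpl38 was at 8.96, 10.5, 3.97 and 3.77 FPKM in mutant muscle, against 1.87, 1.82, 2.36 and 3.06 FPKM in control muscle, with mutant libraries 0 and 1 the highest. It spans 413 kb, against 3.81 kb annotated for the gene, and includes Ttyh2 and Dnaic2, so its level cannot be assigned to Rpl38. The entry Taf6l,Tmem179b, shared by 2 genes, averaged 13.7 ± 5.59 FPKM in mutant muscle and 6.13 ± 1.43 FPKM in control muscle (SD, n = 4 each). Among named genes, 11 entries were over 1.5 times as wide as the annotation: 4930430F08Rik, Rab6a, Rpl38, Pigp, Bhlhe40, Dbp, Clock, Srebf1, Dnajb11, Srsf4 and Tagln. Reads of neighbouring or overlapping transcripts may be part of their values, and of the values of Usp14 and Opn1mw.

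The 15 genes lower in mutant muscle by the same rule include Polh and those described next. Tada3, an adaptor of the SAGA histone acetyltransferase, was at 7.43, 5.76, 8.99 and 8.67 FPKM in mutant muscle, against 12.7, 10.99, 11.5 and 9.76 FPKM in control muscle (difference -0.50, SE 0.117). Smarca4, the BRG1 ATPase that remodels nucleosomes, was at 11.7, 9.49, 11.5 and 11.8 FPKM in mutant muscle, against 13.0, 13.0, 13.2 and 14.8 FPKM in control muscle. The telomere protein Terf2 averaged 7.28 ± 0.286 FPKM in mutant muscle and 9.02 ± 0.153 FPKM in control muscle, with a difference of -0.28, and Ube2t, a ubiquitin-conjugating enzyme of DNA crosslink repair, 4.35 ± 0.213 FPKM in mutant muscle and 6.33 ± 0.0855 FPKM in control muscle (SD, n = 4 each). These groups did not overlap, and their limma adjusted p lay between 0.0722 and 0.134.

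Ppp1r12a, the subunit that targets myosin phosphatase, was at 5.11, 5.14, 5.88 and 7.76 FPKM in mutant muscle, against 8.69, 8.63, 8.75 and 9.88 FPKM in control muscle, with mutant library 3 closest to the controls. Lrrc45, of the centrosome linker, averaged 3.56 ± 0.551 FPKM in mutant muscle and 5.43 ± 0.464 FPKM in control muscle, and Ift43, of transport in cilia, 9.08 ± 0.624 FPKM in mutant muscle and 12.4 ± 1.15 FPKM in control muscle (SD, n = 4 each). Eprs, the tRNA synthetase for glutamate and proline, averaged 53.3 ± 10.5 FPKM in mutant muscle and 76.8 ± 8.65 FPKM in control muscle, and the ubiquitin ligase Rnf25 10.4 ± 0.581 FPKM in mutant muscle and 12.5 ± 0.783 FPKM in control muscle (SD, n = 4 each). Sugp1, a splicing protein, was at 10.9, 8.00, 12.5 and 12.6 FPKM in mutant muscle, against 17.4, 14.3, 13.8 and 14.4 FPKM in control muscle. Cyth1, an exchange factor that activates ARF GTPases, averaged 15.9 ± 2.59 FPKM in mutant muscle and 19.5 ± 0.870 FPKM in control muscle (SD, n = 4 each). Iqcc averaged 3.55 ± 0.709 FPKM in mutant muscle and 5.57 ± 0.909 FPKM in control muscle, and Etohi1 8.78 ± 1.71 FPKM in mutant muscle and 12.8 ± 0.906 FPKM in control muscle (SD, n = 4 each).

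The 20 slow fibre genes had a median difference of -0.28, or -0.34 after centring, the lowest of the lists described here, and 1 was higher and 6 lower (1 and 9 after centring). At ZT0, ZT6 and ZT18 the median of the list was -0.17, -0.20 and -0.07, so it was below 0 at each time. Tnnt1, slow troponin T, was at 123.2, 77.1, 50.6 and 78.7 FPKM in mutant muscle, against 161, 229, 169 and 172 FPKM in control muscle. The groups did not overlap, and the difference was -1.19 (SE 0.332; limma, adjusted p = 0.117). Tpm3, slow tropomyosin, was at 239, 115, 69.2 and 136 FPKM in mutant muscle, against 224, 372, 260.5 and 197 FPKM in control muscle. Myl2, the slow regulatory light chain, was at 623, 367, 217 and 274 FPKM in mutant muscle, against 567, 843, 552 and 433 FPKM in control muscle. In both, mutant library 0 lay within the control range and libraries 1 to 3 below it. Myh2, the type IIA heavy chain, averaged 266 ± 43.4 FPKM in mutant muscle and 377 ± 53.6 FPKM in control muscle (SD, n = 4 each).

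Of 18 fast fibre genes, 2 were higher and 5 lower (2 and 6 after centring), with a median of -0.08, or -0.15 after centring. Tnni2, fast troponin I, was at 11751, 6913, 20945 and 16509 FPKM in mutant muscle, against 27981, 20260.4, 21391 and 17381 FPKM in control muscle, with mutant libraries 0 and 1 lowest. Myh1, the type IIX heavy chain, was at 469, 291, 570.1 and 504 FPKM in mutant muscle, against 541, 730.2, 649.6 and 609.9 FPKM in control muscle. Pygm, muscle glycogen phosphorylase, averaged 2897 ± 403 FPKM in mutant muscle and 3367 ± 256 FPKM in control muscle, while Gpd1, the cytosolic glycerol phosphate dehydrogenase, averaged 301 ± 57.8 FPKM in mutant muscle and 233 ± 20.3 FPKM in control muscle (SD, n = 4 each). The labels do not say which region of the gastrocnemius was taken. With a slow fibre score as covariate, limma called 4 genes higher and 0 lower at ZT12 and 0 genes against the other times, where 1610 were higher and 342 lower at an unadjusted p under 0.05. In bulk muscle, fewer cells of a type and less RNA per cell cannot be told apart.

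**Figure D5:**
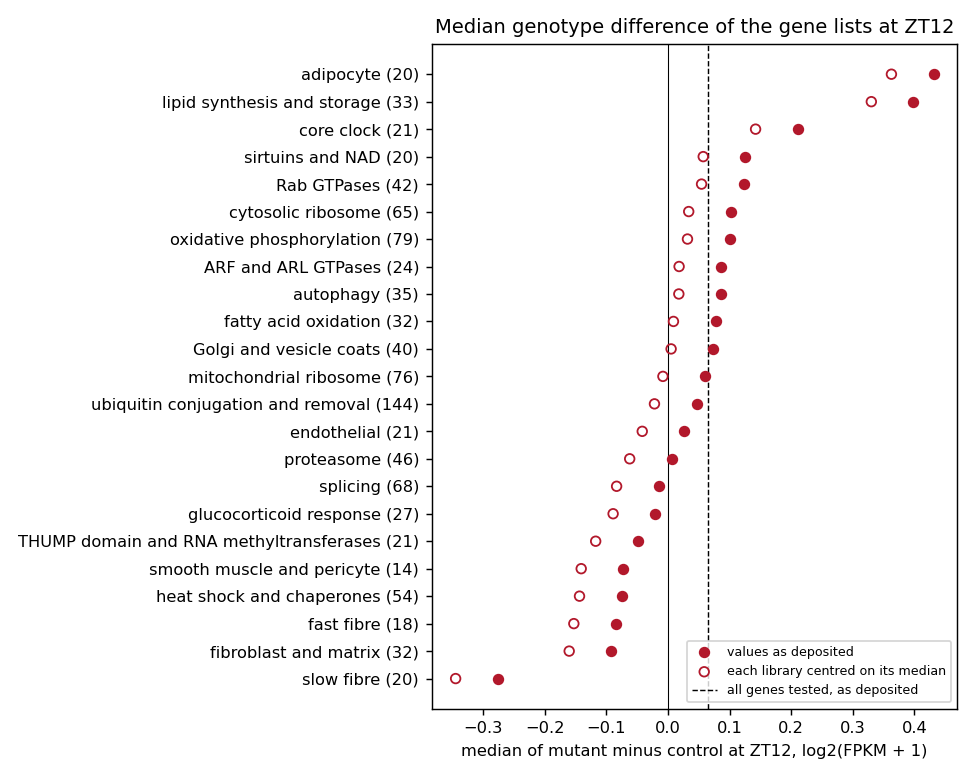
Median difference (mutant minus control, log2(FPKM + 1)) of a selection of the 36 gene lists at ZT12, with the number of genes tested in brackets. Filled points use values as deposited, open points libraries centred on their medians, and the dashed line is the median of all genes, 0.07. Slow fibre genes stand at -0.28 and lipid synthesis genes at 0.40, and the mitochondrial ribosome, ubiquitin, proteasome and endothelial lists change side of 0 on centring.

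No core clock gene passed the adjusted threshold at ZT12 (0 of 21 in limma). At an unadjusted p under 0.05, 3 were higher and 0 lower, or 2 and 0 after centring, near the share of all genes. The difference was above 0 in 17 of the 21, against 63.6% of all genes. After centring it was above 0 in 15 of the 21, against 5570 of all 11314 genes tested. Bhlhe40, the DEC1 repressor, was at 50.8, 68.1, 56.5 and 46.4 FPKM in mutant muscle, against 42.7, 30.6, 34.2 and 42.0 FPKM in control muscle, without overlap (difference 0.56, SE 0.201). Dbp, a PAR bZIP activator and direct clock output, was at 119.9, 103, 81.0 and 61.7 FPKM in mutant muscle, against 58.0, 64.8, 44.9 and 39.0 FPKM in control muscle, with mutant library 3 among the controls (difference 0.80, SE 0.302). Tef, its relative, averaged 96.5 ± 22.0 FPKM in mutant muscle and 77.5 ± 12.2 FPKM in control muscle, and Per3, a period gene, 10.4 ± 3.59 FPKM in mutant muscle and 7.15 ± 1.93 FPKM in control muscle (SD, n = 4 each). On the other limb, Arntl, which encodes BMAL1, averaged 3.59 ± 0.889 FPKM in mutant muscle and 4.65 ± 1.20 FPKM in control muscle, and Nfil3, a repressor of DBP targets, 6.97 ± 1.09 FPKM in mutant muscle and 8.94 ± 2.74 FPKM in control muscle (SD, n = 4 each); both overlapped. Per1 averaged 18.6 ± 5.55 FPKM in mutant muscle and 17.9 ± 6.34 FPKM in control muscle, and Per2 4.84 ± 1.36 FPKM in mutant muscle and 4.93 ± 2.38 FPKM in control muscle (SD, n = 4 each). On the log scale these repressors differed by 0.07 and 0.05, and the sign of both turned when single libraries were left out. The REV-ERB repressor Nr1d1 averaged 77.0 ± 27.4 FPKM in mutant muscle and 60.4 ± 13.7 FPKM in control muscle (SD, n = 4 each), a difference of 0.31. The cryptochromes Cry1 and Cry2 differed by 0.25 and 0.21, and Clock by -0.02, whose sign also turned. The median of the list was 0.21, or 0.14 after centring. At ZT0, ZT6 and ZT18 this median was below 0, at -0.09, -0.19 and -0.02. In library scores at ZT12, the mean deviation of its genes on the log scale, mutant libraries had 0.49, 0.36, 0.22 and 0.18. Control libraries had 0.22, 0.32, 0.16 and -0.16, with control library 3 the lowest.

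Lipid synthesis and storage was represented by 33 genes, of which 3 were higher (2 after centring) and 0 lower, with a median of 0.40, or 0.33 after centring. The median was above 0 at ZT0, ZT6 and ZT18 too (0.14, 0.18 and 0.22). Srebf1, the transcription factor of fatty acid synthesis, was at 38.3, 42.5, 31.0 and 29.0 FPKM in mutant muscle, against 29.6, 26.4, 22.2 and 25.2 FPKM in control muscle. Mlxipl, the carbohydrate sensor ChREBP, averaged 25.7 ± 6.64 FPKM in mutant muscle and 18.9 ± 2.23 FPKM in control muscle, and Insig1, which holds SREBP in the endoplasmic reticulum, 12.3 ± 5.51 FPKM in mutant muscle and 7.01 ± 1.99 FPKM in control muscle (SD, n = 4 each). The adipocyte markers Adipoq, Plin1, Fabp4, Lep and Cidec, 5 of 5 detected, summed to between 381 and 1561 FPKM in mutant libraries and between 501 and 1212 FPKM in control libraries. Mutant library 2 was the lowest of all 8. The wider adipocyte list had a median difference of 0.43, or 0.36 after centring, with 17 of 20 genes above 0. Its medians at ZT0, ZT6 and ZT18 were 0.11, 0.22 and 0.71. Its library scores (mean deviation of its genes on the log scale) were 0.74, 1.14, -1.45 and 1.001 in mutant and -0.88, -0.03, 0.68 and 0.15 in control libraries. The scores of the lipid list were 0.13, 0.81, -0.83 and 0.84 in mutant and -0.77, -0.24, 0.29 and 0.10 in control libraries, so both lists were lowest in mutant library 2. The part of fat in the lipid values was not tested.

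In fatty acid oxidation, 3 of 32 genes were higher and 2 lower (3 and 3 after centring). Cpt2, the inner carnitine palmitoyltransferase, averaged 42.9 ± 10.7 FPKM in mutant muscle and 30.8 ± 3.65 FPKM in control muscle, and Hadh, of the third step of the spiral, 133 ± 28.7 FPKM in mutant muscle and 99.9 ± 11.6 FPKM in control muscle (SD, n = 4 each). Fabp3, the fatty acid binding protein of oxidative muscle, was at 137, 74.0, 75.1 and 62.6 FPKM in mutant muscle, against 123.3, 103, 159 and 141 FPKM in control muscle, with mutant library 0 within the control range. Etfb, the electron acceptor of acyl-CoA dehydrogenases, averaged 234 ± 65.1 FPKM in mutant muscle and 318 ± 19.6 FPKM in control muscle (SD, n = 4 each). Members thus lay on both sides, and the median was 0.08.

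Among 20 genes of sirtuins and NAD metabolism, 5 were higher and 1 lower, or 2 and 1 after centring. Sirt2, a mainly cytosolic deacetylase of the same family as SIRT1, was at 62.4, 63.5, 53.7 and 38.5 FPKM in mutant muscle, against 42.9, 42.4, 40.6 and 33.7 FPKM in control muscle (difference 0.42, SE 0.131). Cd38, which breaks down NAD, averaged 6.44 ± 2.07 FPKM in mutant muscle and 4.00 ± 0.514 FPKM in control muscle, and Nmnat3, a mitochondrial NAD synthase, 7.83 ± 1.37 FPKM in mutant muscle and 6.28 ± 0.692 FPKM in control muscle (SD, n = 4 each). Of 27 glucocorticoid responsive genes, 0 were higher and 1 lower (0 and 2 after centring). The lower gene, Fkbp5, the immunophilin that dampens the receptor, was at 11.3, 8.18, 14.96 and 17.3 FPKM in mutant muscle, against 13.3, 37.7, 21.8 and 23.5 FPKM in control muscle, with control library 1 far above the rest.

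Of 54 chaperone genes, 6 were higher and 7 lower (2 and 11 after centring), with a median of -0.08. Dnajb4, an HSP70 partner, was at 34.5, 29.4, 40.1 and 42.3 FPKM in mutant muscle, against 50.9, 52.5, 59.4 and 38.1 FPKM in control muscle. Hsp90ab1, the constitutive cytosolic HSP90, was at 453, 297, 576 and 547 FPKM in mutant muscle, against 723, 628, 594 and 551 FPKM in control muscle, with mutant library 1 far down. Of 68 splicing genes, 9 were higher and 11 lower (5 and 17 after centring). Tra2b, a splicing activator, averaged 11.1 ± 1.602 FPKM in mutant muscle and 7.45 ± 1.53 FPKM in control muscle, and Srsf4, an SR protein, 13.0 ± 0.515 FPKM in mutant muscle and 16.2 ± 2.05 FPKM in control muscle (SD, n = 4 each). Of 21 THUMP domain and RNA methyltransferase genes, 2 were higher and 4 lower (1 and 6 after centring). Besides Thumpd2, the lower ones include Thumpd1, the tRNA acetylation adaptor (15.1 ± 3.04 FPKM in mutant muscle and 18.8 ± 0.892 FPKM in control muscle), and Mettl14, of the m6A writer (6.81 ± 1.87 FPKM in mutant muscle and 9.03 ± 0.535 FPKM in control muscle; SD, n = 4 each).

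Of 14 smooth muscle and pericyte genes, 1 was higher and 4 lower (0 and 4 after centring). Myh11, the smooth muscle heavy chain, was at 9.33, 9.36, 9.97 and 19.1 FPKM in mutant muscle, against 17.2, 19.1, 21.2 and 20.2 FPKM in control muscle, with mutant library 3 level with the controls and the other 3 at about the same low value (difference -0.72, SE 0.199; limma, adjusted p = 0.117). Mylk, the myosin light chain kinase, was at 4.78, 4.25, 4.02 and 7.19 FPKM in mutant muscle, against 6.54, 8.00, 6.58 and 7.28 FPKM in control muscle, and mutant library 3 again lay with the controls. Tagln, an actin-binding protein, averaged 37.6 ± 5.22 FPKM in mutant muscle and 48.9 ± 4.38 FPKM in control muscle, and Lmod1, an actin nucleator, 6.97 ± 1.27 FPKM in mutant muscle and 4.63 ± 1.17 FPKM in control muscle (SD, n = 4 each). The sum of the 3 defining markers Myh11, Acta2 and Cnn1 was 37.5 to 59.5 FPKM in mutant and 54.6 to 67.4 FPKM in control libraries, and whether vessel content differed was not tested.

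Of 32 matrix genes, 1 was higher and 2 lower (0 and 2 after centring). The lower ones were both chains of type IV collagen, of basement membranes. Col4a1 averaged 33.0 ± 5.85 FPKM in mutant muscle and 44.9 ± 12.5 FPKM in control muscle, and Col4a2 26.4 ± 5.20 FPKM in mutant muscle and 36.4 ± 8.00 FPKM in control muscle (SD, n = 4 each). The higher one, the keratan sulphate proteoglycan Lum, averaged 39.0 ± 12.7 FPKM in mutant muscle and 25.3 ± 4.81 FPKM in control muscle (SD, n = 4 each). Of 21 endothelial genes, 1 was higher and 1 lower (1 and 3 after centring), with a median of 0.03, and 4 defining markers summed to 71.7 to 90.1 FPKM in mutant and 71.4 to 81.0 FPKM in control libraries. The higher gene, Cav1, of membrane caveolae, was at 135, 163, 81.0 and 96.0 FPKM in mutant muscle, against 76.3, 76.9, 91.7 and 77.1 FPKM in control muscle, with mutant libraries 0 and 1 high. Lymphocyte markers, 6 of 6 detected, varied within both genotypes, from 3.33 to 41.9 FPKM in sum in mutant and from 2.05 to 51.4 FPKM in control libraries, and Cd3g was listed at 0 in mutant library 2. In the wider lymphocyte list, 23 of 24 genes had a difference above 0, against 63.6% of all genes. Its median was 0.43, or 0.36 after centring, and 0 genes were higher or lower. At ZT0, ZT6 and ZT18 the median of this list was -0.38, 1.13 and 1.02. Its library scores at ZT12 were 0.72, 1.59, -0.75 and 1.08 in mutant and -0.86, 1.04, -0.85 and 1.65 in control libraries. Macrophage markers summed to 20.2 to 35.4 FPKM in mutant and 16.3 to 31.0 FPKM in control libraries. Of 17 macrophage and neutrophil genes, 15 had a difference above 0, and 2 were higher and 0 lower (1 and 0 after centring). Their median was 0.33, or 0.26 after centring. With lymphocyte and adipocyte scores as covariates, limma called 3 genes higher and 0 lower, and Thumpd2 had an adjusted p of 0.0601. On chromosome 2, where Nr6a1, Gm13490 and Arl5a lie, 13.9% of 891 tested genes were higher and 5.39% lower, against 13.2% and 4.72% of all genes. The Sf1 locus, whose promoter gives the Cre transgene its name, is on chromosome 2 too. A share over the whole chromosome does not describe the stretches beside that locus or these genes. Whether their position matters was not tested.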

How the data were processed

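RNA from gastrocnemius muscle was converted to stranded mRNA libraries and sequenced as single-end reads of 100 cycles in multiplexed pools, per the labels' protocols; the labels do not say which library was in which pool. The authors deposited FPKM values per gene, aligned to mm10 per the submitters' processing notes. The aligner, counting tool and annotation were not named in the labels or headers. Columns of the table show genotype, time and a library number that does not identify the labelled sample, so libraries were assigned to groups only. The labels number each sample but do not state that each is another animal, and the p-values measure the spread between these samples.

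From these values, exact zeros were set to missing in genes whose non-zero libraries had a median of at least 10 FPKM and a lowest value of at least 1 FPKM. A model with 8 group means was fitted to log2(FPKM + 1) of all 32 libraries with limma 3.58.1 in R 4.3.3 (trended prior, 24 residual degrees of freedom). Benjamini-Hochberg adjustment ran over all genes tested, and every test was 2-sided. A second contrast set the ZT12 difference against the mean of those at ZT0, ZT6 and ZT18. Sirt1 was tested by exact permutation. The fit was tested on simulated data.

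Genes named are those called in either contrast, the 15 higher and 15 lower with the smallest p whose groups do not overlap and whose higher group averaged at least 5 FPKM, Rnf7, and from each list some of the 4 with the smallest p. More core clock genes are given, and Tnnt3 and Myh1 among the markers. The genes and the 36 lists were chosen with earlier results of these data known. Lists are described by counts and medians, with no test. Alternatives were another pseudocount, filters, normalisations, weights, priors, covariates and leaving out each library. Of the entries, 256 carry several symbols and 23 have a symbol in the form of a date. Transcript lengths and spans are from GENCODE.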

Additional observations from a re-analysis of the deposited data

Results flagged for a closer look

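The genotype difference at ZT12 departed from the mean difference at the other 3 times in 13 genes (limma, adjusted p under 0.05 for the contrast itself). The departure on log2(FPKM + 1) was 0.96 for Cib2, 0.95 for Opn1mw, 0.84 for Lrp2bp, 0.67 for 4930430F08Rik, 0.60 for Rab6a, 0.60 for Btf3, 0.59 for Chmp2b, 0.57 for Snrpd3, 0.52 for D930016D06Rik, 0.48 for Mff and 0.48 for Usp14. It was -0.64 for Thumpd2 and -0.62 for Polh.

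Single libraries stood far from the other 3 of their group in 14 of the 212 groups of 4 looked at, and chance flags about 1 group in 20. Among mutant libraries these were library 0 for Fabp3 at 137 FPKM and for Sirt1 at 4.42 FPKM, library 1 for Tmed7 at 28.3 FPKM, for Smarca4 at 9.49 FPKM and for Nr1d1 at 118 FPKM, and library 3 for Myh11 at 19.1 FPKM. Among control libraries they were library 0 for Ndufa1 at 148 FPKM and for Dhrs7b at 7.73 FPKM, library 1 for Tnnt1 at 229 FPKM and for Usp14 at 16.5 FPKM, and library 2 for Cav1 at 91.7 FPKM. Control library 3 stood apart for Smarca4 at 14.8 FPKM, for Ppp1r12a at 9.88 FPKM and for Lrp2bp at 2.28 FPKM.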

How the results depend on the processing

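The 3 genes called at ZT12 became 7 with a pseudocount of 0.1, 10 with array weights, 0 with a filter on a mean of at least 5 FPKM and 0 with the ZT12 libraries alone. With the ZT12 libraries alone, limma gave 1139 genes higher and 319 lower at an unadjusted p under 0.05, and with the filter 1111 and 421. That filter took out all 3 called genes before the test, because each averaged under 5 FPKM. The higher count was 935 with quantile normalisation, 872 with centred libraries and 904 with the length correction, and the lower count 1119, 1055 and 993 under the same settings. The 13 genes called against the other times became 0 with no filter, 0 with the slow fibre score as covariate, 3 with quantile normalisation, 5 with centred libraries, 5 with the length correction and 71 with array weights. The cause was not tested. Leaving out each library gave 2 to 472 genes called, 831 to 2017 higher, 157 to 807 lower, and 0 to 843 called against the other times. The Sirt1 difference ranged from -0.0047, without control ZT12 library 3, to 0.12, and was 0.05 with the other pseudocount.

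Nr6a1 missed the threshold with the ZT12 libraries alone (limma, adjusted p = 0.172), and Gm13490 with those (0.0647), quantile normalisation (0.0781) and array weights (0.0577). Limma put the adjusted p of Thumpd2 at 0.172 with the ZT12 libraries alone, 0.0596 with no filter, 0.0601 with lymphocyte and adipocyte covariates and 0.0507 with the slow fibre covariate, within 0.0262 to 0.172 over the settings other than leaving out libraries. Among clock genes near 0, the difference of Per1 turned to -0.061 with array weights, that of Per2 to -0.11 with array weights and -0.016 with centred libraries. Over leaving out each library it ran from -0.17 to 0.25 for Per1, from -0.25 to 0.27 for Per2 and from -0.071 to 0.043 for Clock. No paired analysis was possible because the numbers in the column names are not those of the labelled samples. Only relative depth is known, so no counting error can be given for low genes.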
